A study of Rattus norvegicus with 24 samples.

Results

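The lowest dose of 17β-estradiol given to male rats, 0.1 µg/kg/day, was compared with the dose 0 in the abdominal mammary gland. The arrays were selected by their gender and dose labels. This comparison and the 40 gene lists used below were chosen with earlier results of these data known. All arrays whose gender label reads male and whose dose is 0.1 or 0 were taken, which gave 6 of the 24 arrays of the series, 3 at each dose. The remaining 18 arrays hold the males at 1 and 10 µg/kg/day and the females at 0, 0.1, 1 and 10 µg/kg/day, again with 3 arrays in each group. Per the labels and design text, all were prepubertal Sprague-Dawley rats that were fitted with an osmotic pump under the skin at postnatal day 21 and killed at postnatal day 33, and the controls had a pump as well (the sample labels list the dose under diet). Gland pairs were frozen and total RNA of the whole gland was hybridised to Affymetrix arrays. The labels do not say whether an array stands for 1 animal, and the p-values below thus reflect array-to-array spread that could be technical.

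17β-Estradiol is the main ovarian estrogen. In the mammary gland it binds estrogen receptor alpha, which is made in part of the luminal epithelial cells and in stromal cells, and the receptor then turns on genes such as the progesterone receptor and the growth factor amphiregulin. Amphiregulin is shed from the epithelium and acts on epidermal growth factor receptors of the stroma to drive growth of the ducts. Around the ducts lies a fat pad of adipocytes, blood vessels, collagen-rich stroma and nerves, so RNA of the whole gland mixes all of these cell types.

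Each value below is a centred value on a log scale, taken as log2, with 0 near the middle of the male arrays for that probe set. The table therefore holds differences between doses but not the level of a gene, and neither the tissue nor the sex label could be checked against marker levels. In RNA of a whole gland, fewer cells of a type and less RNA per cell cannot be told apart. A difference is the mean at 0.1 minus the mean at 0, with its standard error (SE) from a linear model in limma fitted to all 24 arrays, and n = 3 arrays per group throughout. Because only 6 arrays are compared, agreement between arrays is given as well. A gene is called non-overlapping where all 3 arrays at 0.1 lay above all 3 at 0, or all 3 below.

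No gene passed the test at this dose. Of 31042 probe sets, 0 (0%) had an adjusted p under 0.05 in limma, and the smallest adjusted p was 0.102, for Cryzl2. At an unadjusted p under 0.05 the count was 3703 probe sets, 1646 of them higher at 0.1 (5.3%) and 2057 lower (6.63%). The 2 groups of arrays did not overlap in 5930 probe sets. In 2584 of these the arrays at 0.1 were higher (8.32% of those tested), and in 3346 they were lower (10.8%). With 1 probe set for each of 14217 genes, 1252 genes were non-overlapping and higher (8.81%) and 1748 were non-overlapping and lower (12.3%). These last shares are the background against which each gene list is read below. Leaving out 1 of the 6 arrays raised them to between 10.4% and 22.6% higher and between 14.6% and 23.2% lower, so counts without an array are read against those. By sign alone, 6709 of all genes had a difference above 0 (47.2%) and 7508 below 0. An exact permutation test of a single gene over 3 against 3 arrays cannot give a p under 0.1, so none is given. The count of 0 called probe sets became 180 with array weights and 1204 with the 3′ to 5′ difference of beta-actin, a measure of RNA integrity, as a covariate.

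The arrays of a group were not alike. Across all probe sets, replicates 5 and 6 at 0.1 correlated with each other at a Pearson r of 0.76, whereas replicate 4 at 0.1 correlated at -0.33 with replicate 5 and -0.22 with replicate 6. Replicate 4 correlated at 0.47 with control replicate 1. These are correlations across probe sets, which are not independent, and are given as a description. Markers of tissues beside the gland differed between the arrays too. The mean of 35 skeletal muscle genes was 1.54, -0.12 and -0.43 in control replicates 1, 2 and 3 and 0.99, -2.77 and -2.30 in replicates 4, 5 and 6 at 0.1. The mean of 30 hepatocyte genes was -0.01, 1.19 and 2.31 in the controls and between -0.17 and 0.00 at 0.1. The mean of 17 T cell genes was -1.56, 0.22 and -1.04 in the controls and 0.10, 0.52 and 0.42 at 0.1. The difference between the 3′ and 5′ probe sets of beta-actin was -0.56, -0.06 and -0.28 in the controls and -0.36, -0.50 and -0.47 at 0.1.

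**Figure D1:**
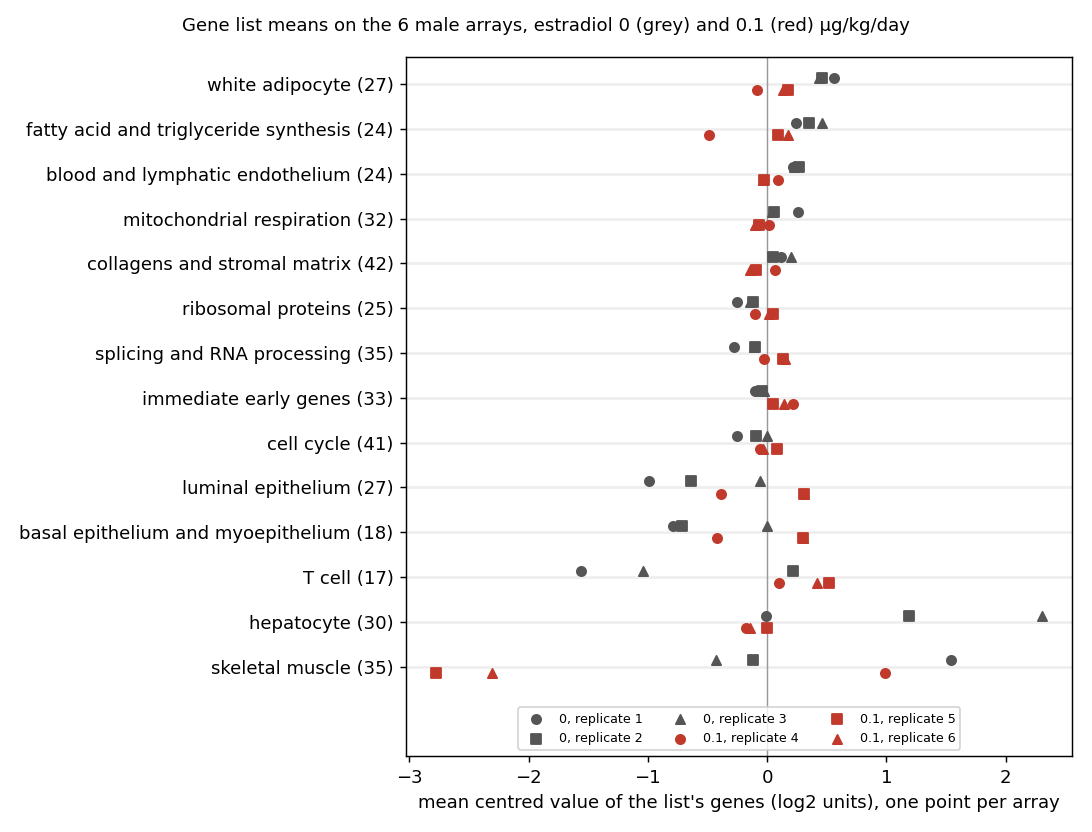
Mean centred value (log2 units, horizontal axis) of the genes of 14 lists on each of the 6 male arrays, with the number of genes measured in brackets, grey for estradiol 0 and red for 0.1 µg/kg/day. White adipocyte genes lie at 0.43 to 0.56 in the controls and at -0.08 to 0.17 at 0.1 with no overlap, whereas the skeletal muscle genes range from -2.77 to 1.54 and overlap.

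The classic estrogen targets gave a mixed picture at 0.1 µg/kg/day, with amphiregulin at the top. Of 29 targets measured, 6 were non-overlapping and higher (20.7%) and 4 non-overlapping and lower (13.8%), and the median difference was -0.05, against -0.01 over all genes. Leaving out 1 array gave 6 to 11 non-overlapping and higher targets (11 without replicate 4 at 0.1) and 5 to 8 lower ones (8 without control replicate 1 or 2 or without replicate 5 at 0.1). Areg, which encodes amphiregulin, read -2.88, -2.10 and -1.99 in control replicates 1, 2 and 3 and -1.62, -0.70 and -0.69 in replicates 4, 5 and 6 at 0.1. Every array at 0.1 lay above every control, and replicate 4 was the lowest of the 3. The difference was 1.32 ± 0.44 (95% interval 0.39 to 2.24, limma adjusted p = 0.343), which is 2.49-fold if the scale is log2. With quantile normalization the difference of Areg was 0.83, and with control replicate 1 as the only control, without the arrays that carry hepatocyte transcripts, it was 1.87. With the beta-actin covariate it was 1.63.

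The letters just before the start of Areg are shown because this gene had the largest difference among the estrogen targets. They cover 250 bases upstream of the start in RefSeq, rat build GRCr8, chr14:17265642-17265891 on the minus strand, written 5′ to 3′. The capitals mark a cAMP response element, TGACGTCA, and a TATA box, TATAAA.

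Areg: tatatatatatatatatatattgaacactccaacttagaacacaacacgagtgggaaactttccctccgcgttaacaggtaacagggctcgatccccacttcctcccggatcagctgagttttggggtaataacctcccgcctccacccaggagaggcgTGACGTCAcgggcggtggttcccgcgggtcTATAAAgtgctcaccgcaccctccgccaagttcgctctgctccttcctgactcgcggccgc

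The cAMP response element begins 91 bases before the start and the TATA box 61 bases before it. TGACGTCA reads alike on both strands and was found in 1.59% of the 33469 RefSeq windows of this length. TATAAA on the gene's strand was found in 8.06% of them. Of the estrogen targets, 21 genes had a window, and TGACGTCA was found in 1 of these, Areg. The full palindromic estrogen response element, GGTCANNNTGACC, was in 0 of the 21 and in 0.0239% of all windows. These letters describe the window and say nothing about which factor acts there.

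Pgr and Greb1, the other standard readouts of estrogen receptor activity, differed from one another. Pgr, the progesterone receptor, read -1.18, -1.08 and -1.13 in the controls and -0.83, -0.38 and -0.49 at 0.1. Its groups did not overlap, and the difference was 0.56 ± 0.32 (adjusted p = 0.473 in limma). Greb1, a cofactor of the estrogen receptor, read -1.07, -0.41 and -0.70 in the controls and -0.81, -0.79 and -0.79 at 0.1. The 3 treated arrays lay inside the range of the controls, with a difference of -0.07 ± 0.37 (95% interval -0.84 to 0.70) that became 0.09 without control replicate 2 and 0.28 without the hepatocyte-bearing arrays.

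The males at higher doses give a scale for these values, although those comparisons share the 3 control arrays. Areg differed from 0 by 3.18 at 1 µg/kg/day and by 5.35 at 10, Pgr by 1.75 and 2.93, and Greb1 by 1.26 and 3.26. The comparison of 10 with 0.1 uses no control array, and here all 3 genes were higher at 10. Areg was higher by 4.04 ± 0.44 (limma adjusted p = 4.79e-05), Pgr by 2.36 ± 0.32 (0.000319) and Greb1 by 3.33 ± 0.37 (5.24e-05). These 2 groups of arrays also differed in the beta-actin measure, which was -0.36, -0.50 and -0.47 at 0.1 and -0.02, 0.16 and 0.05 at 10. With it as a covariate the differences were 2.96 ± 0.67, 2.10 ± 0.54 and 3.13 ± 0.62. The adjusted p were 0.0685, 0.0944 and 0.0515 in limma, so the 3 calls were lost. The SE were larger than without the covariate, and the measure itself did not overlap between the arrays at 0.1 and 10. Its part in these differences was not tested. Over all genes in that comparison, 237 (1.67%) were higher at 10 and 590 (4.15%) were lower. Among the 29 estrogen targets, 4 were higher at 10 than at 0.1 and 5 were lower, the latter including Igf1 and Cxcl12. With the beta-actin covariate 0 were higher and 1 was lower, and without replicate 5 or without replicate 6 at 0.1 the lower count was 3.

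Further estrogen targets of the epithelium were higher at 0.1 without passing the test. Ret, a receptor tyrosine kinase, read -0.65, -0.11 and -0.34 in the controls and 0.02, 0.41 and 0.47 at 0.1, a non-overlapping difference of 0.67 ± 0.24. Tnfsf11, the ligand RANKL by which progesterone signals between epithelial cells, read -0.54, 0.43 and -0.53 against 0.46, 1.06 and 1.65, a difference of 1.27 ± 0.70. In Tnfsf11 the groups were separated by only 0.46 against 0.43 at their nearest arrays. Ccnd1, the cyclin of early G1 phase, differed by 0.36 ± 0.19 and Sgk3 by 0.42 ± 0.22, both non-overlapping. Wnt4, a paracrine signal of the luminal cells, differed by 0.78 ± 0.22 (adjusted p = 0.33 in limma) and Prlr, the prolactin receptor, by 0.80 ± 0.29. Both overlapped, because control replicate 3 (-0.20 for Wnt4 and 0.18 for Prlr) lay above replicate 4 at 0.1 (-0.34 for each). None of Ret, Wnt4 and Prlr passed the test between 10 and 0.1, where the difference was 0.00 ± 0.24 for Ret, 0.18 ± 0.22 for Wnt4 and -0.09 ± 0.29 for Prlr.

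The receptor itself and its stromal partners lay lower or level. Esr1, estrogen receptor alpha, read 0.98, 0.19 and 0.22 in the controls and 0.16, 0.13 and 0.28 at 0.1. Only control replicate 1 stood above the others, and the difference of -0.27 ± 0.18 was -0.01 without it. Igf1, a growth factor made by the stroma, read 1.09, 0.33 and 0.49 against 0.44, 0.26 and -0.04, a difference of -0.42 ± 0.19 with overlap. Here too control replicate 1 stood above the other arrays. Between 10 and 0.1, Igf1 was lower at 10 by -0.94 ± 0.19 (limma adjusted p = 0.00736). With the beta-actin covariate this was -0.60 ± 0.31 and not called (0.279 in limma). Of the 4 targets that were non-overlapping and lower, Fgf10, a stromal duct signal, differed by -0.36 and Adora1, an adenosine receptor, by -0.35.

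Ligands and receptors of the ErbB family, through which amphiregulin acts, were mostly above 0. Of 13 measured, 10 had a difference above 0 and the median was 0.12. Areg and Nrg1 (0.35), both ligands, were the 2 non-overlapping members (15.4%), and the count was 5 without control replicate 3 and 7 without replicate 4 at 0.1. The receptor genes Erbb2 (0.60 ± 0.21) and Erbb3 (0.33 ± 0.12) and the ligand Tgfa (0.49 ± 0.23) were higher on average and overlapped. Egfr, the receptor that amphiregulin binds, differed by 0.12.

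Genes of hormone receptors and steroid metabolism lay near the background as a list. Of 28 measured, 19 differences were below 0, 4 members were non-overlapping and lower (14.3%, near the 12.3% over all genes) and 1 was non-overlapping and higher. The median was -0.13, and -0.07 without control replicate 1. The count of 4 was 10 without control replicate 2 and 8 without replicate 5 at 0.1, and 7 without replicate 4 or without replicate 6. Sts, steroid sulfatase, which frees estrogens from their sulfates, read 0.57, 0.61 and 0.42 in the controls and 0.02, 0.04 and -0.02 at 0.1. All 3 treated arrays lay close together and well below the controls, with a difference of -0.52 ± 0.13 (adjusted p = 0.316 in limma). Sult1e1, the estrogen sulfotransferase that inactivates estradiol, read 1.05, 0.47 and 2.22 against -0.20, 0.13 and 0.95. The arrays overlapped, and the difference was -0.95 ± 0.33.

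Fat cell genes had the largest share of non-overlapping genes among the 40 lists. Of 27 white adipocyte genes measured, 27 had a difference below 0, 20 were non-overlapping and lower (74.1%, against 12.3% over all genes) and 0 were non-overlapping and higher. The median difference was -0.43, with a range from -0.70 to -0.18. The list mean was 0.56, 0.46 and 0.43 in control replicates 1, 2 and 3 and -0.08, 0.17 and 0.13 in replicates 4, 5 and 6 at 0.1. No array at 0.1 reached the lowest control, and replicate 4 was the lowest. The count of non-overlapping members was 20 to 23 when any 1 of the 6 arrays was left out.

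Within this group, Mgll, the lipase that cleaves monoglycerides, read 0.68, 0.54 and 0.57 in the controls and -0.14, 0.18 and 0.10 at 0.1, a difference of -0.55 ± 0.15 that had the same sign in 4 of 4 probe sets. Aqp7, the glycerol channel of fat cells, read 0.83, 0.77 and 0.70 against -0.25, 0.45 and 0.16, a difference of -0.65 ± 0.19. Pparg, the nuclear receptor that directs fat cell formation, read 0.56, 0.88 and 0.55 against 0.17, -0.02 and 0.03, a difference of -0.61 ± 0.18. In all 3 genes every treated array was below every control, and limma's adjusted p was 0.33 for each. Trarg1, which regulates traffic of the glucose transporter GLUT4, differed by -0.52 ± 0.15, and Plin1, the coat protein of the lipid droplet, by -0.43 ± 0.17. The smallest differences were those of Fabp4, the fatty acid carrier (-0.18 ± 0.08, non-overlapping), and Pde3b (-0.18 ± 0.18, overlapping). Lep, which encodes leptin, read 1.27, 0.64 and 0.88 against 0.56, 0.77 and 0.74 and overlapped.

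At 10 µg/kg/day most of this list was lower than at 0.1. Between 10 and 0.1, 22 of the 27 genes were lower at 10 by limma's adjusted p and 0 were higher, against 4.15% lower over all genes. The count was 15 without replicate 5 at 0.1, 16 without replicate 6, and 0 with the beta-actin covariate, where 24 of the 27 were below 0 and the median was -0.62 instead of -0.87. Mgll was lower at 10 than at 0.1 by -0.87 ± 0.15 (adjusted p = 0.00247), Aqp7 by -1.05 ± 0.19 (0.00356) and Pparg by -0.93 ± 0.18 (0.00519). With the beta-actin covariate these were -0.65 ± 0.25, -0.60 ± 0.30 and -0.98 ± 0.30, with adjusted p of 0.178, 0.267 and 0.129 in limma. The list median of the difference from 0 was -0.43 at 0.1, -0.77 at 1 and -1.36 at 10 in males, with shared controls. In females at 0.1 it was -0.67, from other arrays, and 22 of 27 genes were non-overlapping and lower there (81.5%), beside 6.75% of all genes in females. Those arrays may be linked to the male ones. Deviations of same-numbered male and female arrays at 0.1 from their group means correlated at 0.59, 0.44 and 0.46. The background for non-overlapping and higher genes in females was 4.83%.

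**Figure D2:**
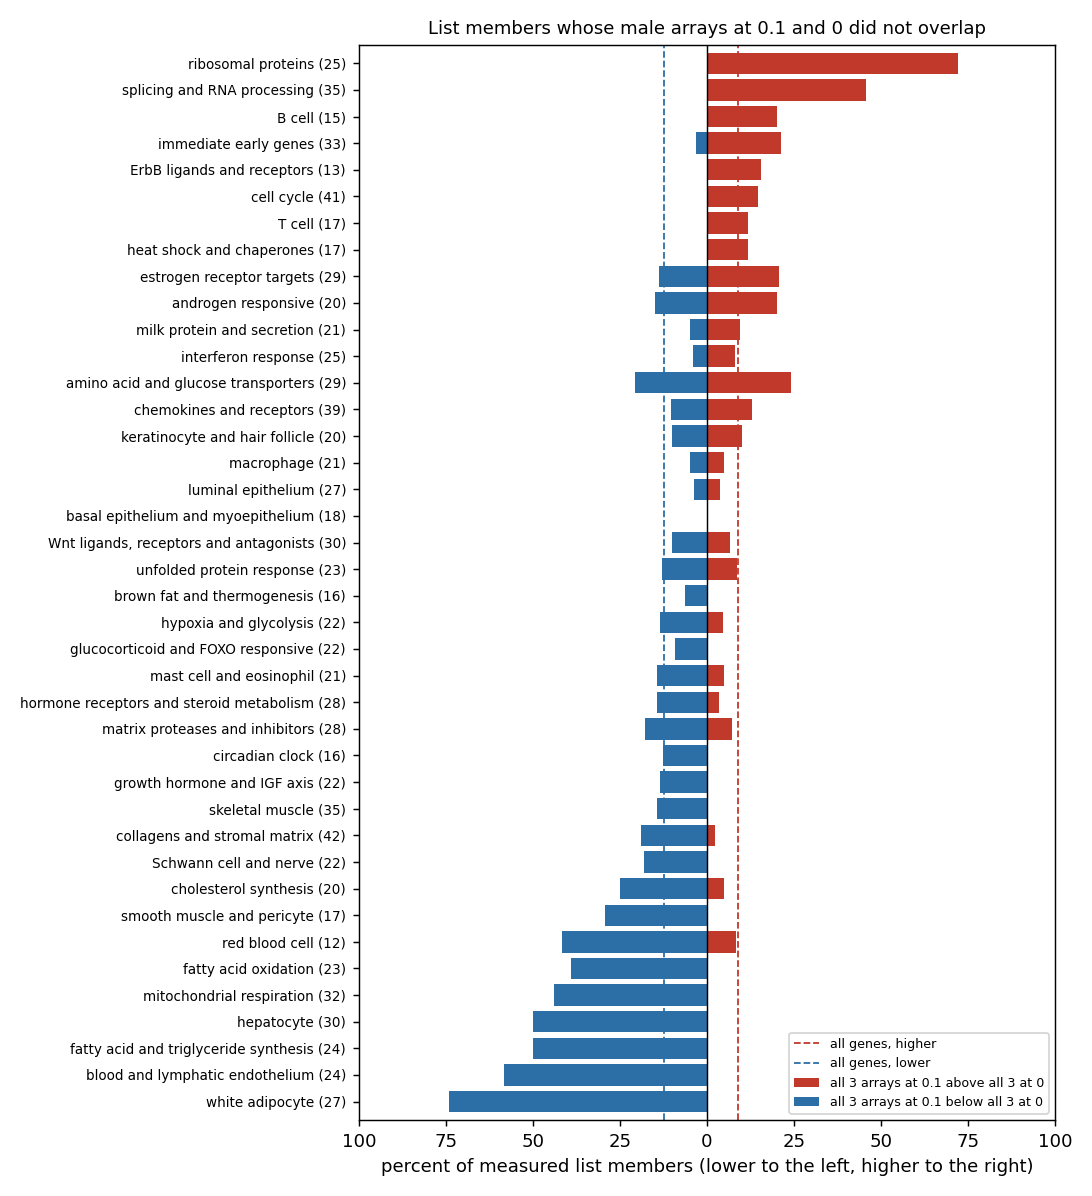
Percent of the measured genes of each of 40 lists whose arrays did not overlap between 0.1 and 0 in males, to the left where all 3 arrays at 0.1 were lower and to the right where all 3 were higher; dashed lines mark the shares over all 14217 genes, 12.3% and 8.81%. White adipocyte genes reach 74.1% on the lower side and ribosomal protein genes 72.0% on the higher side.

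Lipid synthesis genes lay on the same side. Of 24 genes of fatty acid and triglyceride synthesis, 3 of which are also in the adipocyte list, 21 were below 0, 12 were non-overlapping and lower (50%) and the median was -0.48. Dgat1, which makes the last step to triglyceride, read 0.52, 0.44 and 0.37 in the controls and -0.05, 0.09 and 0.07 at 0.1, a difference of -0.41 ± 0.12. Agpat2 (-0.70 ± 0.24) and Agpat3 (-0.51 ± 0.17), acyltransferases of triglyceride assembly, and Scd (-0.44 ± 0.18), a fatty acid desaturase, were also non-overlapping. In Scd replicate 4 read -0.69 while replicates 5 and 6 read 0.11 and -0.11, close to the controls at 0.17 to 0.25. Without replicate 4 the list median was -0.26 instead of -0.48, and without control replicate 1 the non-overlapping and lower count was 20 instead of 12. Fads1, Fads2 and Elovl5, which lengthen and desaturate polyunsaturated fatty acids, were the 3 genes above 0, by 0.10, 0.17 and 0.23, and overlapped.

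Cholesterol synthesis lay closer to 0 as a group, with 5 of 20 genes non-overlapping and lower (25%), 1 non-overlapping and higher and a median of -0.08. Its direction was lost without control replicate 3 (median 0.00) and without replicate 4 at 0.1 (0.01). Without control replicate 1 the median was -0.16, further below 0. Without control replicate 2 the lower count was 8. Nsdhl, an enzyme late in the pathway, read 0.35, 0.38 and 0.53 in the controls and -0.27, -0.14 and 0.00 at 0.1, a difference of -0.56 ± 0.17. Insig1, which holds back the sterol sensor and is itself sterol regulated, read 0.53, 0.33 and 0.59 against -0.52, -0.06 and 0.04, a difference of -0.66 ± 0.25. Both were non-overlapping.

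Fatty acid oxidation and mitochondrial respiration were lower by small amounts. Of 32 respiration genes, 32 were below 0 and 14 were non-overlapping and lower (43.8%), with a median of -0.16. Of 23 oxidation genes, 21 were below 0 and 9 were non-overlapping and lower (39.1%), with a median of -0.22. Sdha, a subunit of succinate dehydrogenase, read 0.19, 0.14 and 0.07 against -0.06, -0.01 and 0.01. Acads, the short-chain acyl-CoA dehydrogenase, read 0.31, 0.27 and 0.26 against -0.01, 0.01 and 0.02. The respiration median was -0.10 without control replicate 1, and its non-overlapping and lower count was 27 without replicate 4 at 0.1. The oxidation count was 16 without replicate 5 at 0.1. Skeletal muscle genes lay on the same side, with 35 of 35 below 0 and a median of -1.60. That median was -1.03 without control replicate 1, -2.97 without replicate 4 at 0.1 and -0.73 without replicate 5. With the hepatocyte and muscle means as covariates, the median of the respiration genes was 0.12 and that of the oxidation genes 0.02, so their direction turned. In that fit the adipocyte median was -0.44 and the lipid synthesis median -0.53. The part of muscle RNA in these differences was not tested. In females at 0.1, 26 of the 32 respiration genes were above 0 with a median of 0.13, but 0 were non-overlapping and higher. The oxidation median in females was -0.03.

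Vessel genes were lower as well. Of 24 endothelial genes, 14 were non-overlapping and lower (58.3%), 0 were non-overlapping and higher, and the median was -0.26. Egfl7, a secreted factor of endothelial cells, read 0.57, 0.52 and 0.53 in the controls and 0.36, 0.02 and 0.11 at 0.1. Its groups did not overlap, and the difference was -0.38 ± 0.08 (adjusted p = 0.316 in limma). Esam and Ptprb, both of endothelial junctions, and Erg, an endothelial transcription factor, differed by -0.39 ± 0.13, -0.44 ± 0.16 and -0.35 ± 0.12, all non-overlapping. Of the pan-endothelial markers, Pecam1 differed by -0.21 and Kdr, the main receptor of VEGF, by -0.16. Of the genes known from lymphatic vessels, Prox1, the lymphatic regulator, differed by 0.41 ± 0.26, Flt4 by 0.00 and Lyve1 by -0.14, each overlapping. Angpt1, which steadies vessels, and Rgs5, a pericyte gene, were among the 12 lowest p of the lower direction (below).

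Stromal matrix genes had 38 of 42 differences below 0, but only 8 were non-overlapping and lower (19%). Without replicate 4 at 0.1, the count of non-overlapping and lower matrix genes was 31 of 42, and without control replicate 2 it was 16. Col8a1, a short-chain collagen of vessel walls, read 1.12, 1.26 and 1.58 in the controls and 0.50, 0.22 and -0.02 at 0.1, a difference of -1.09 ± 0.36. Eln, elastin, read 0.04, 0.13 and 0.72 against -0.32, -0.45 and -0.32, a difference of -0.66 ± 0.21. The main fibrillar collagens Col1a1, Col1a2 and Col3a1 differed by -0.06, -0.07 and -0.01. Tnc, tenascin C, was the 1 matrix gene that was non-overlapping and higher, by 0.77.

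**Figure D3:**
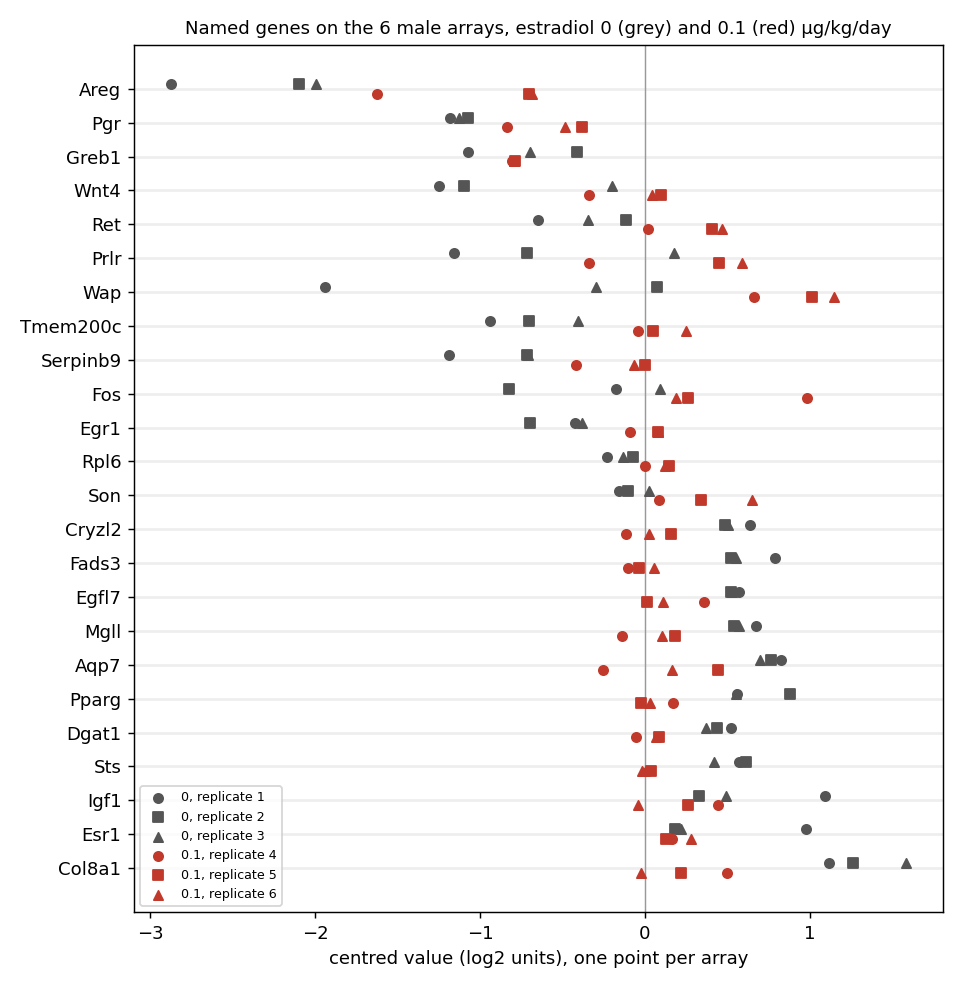
Centred value (log2 units, horizontal axis) of 24 genes on each of the 6 male arrays, grey for estradiol 0 and red for 0.1 µg/kg/day, with the symbol giving the replicate. Areg has the largest mean difference from its controls among the estrogen targets shown, Greb1 lies inside its controls, and the fat cell genes Mgll, Aqp7 and Pparg lie below theirs.

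In the higher direction the largest shares were those of ribosomal and splicing genes. Of 25 ribosomal protein genes, 18 were non-overlapping and higher (72%, against 8.81% over all genes) and 0 non-overlapping and lower, with a small median difference of 0.17. The list mean was -0.25, -0.12 and -0.15 in the controls and -0.10, 0.05 and 0.01 at 0.1. Rpl6 read -0.23, -0.07 and -0.13 against 0.00, 0.15 and 0.12, a difference of 0.23 ± 0.10. Rpl7 was the 1 member below 0, by -0.12. Genes of this family have many near-identical copies in the genome, so probe sets may detect more than 1 of them.

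Of 35 splicing and RNA processing genes, 35 were above 0 and 16 were non-overlapping and higher (45.7%), with a median of 0.26. The count was 26 without replicate 4 at 0.1. Son, a scaffold of nuclear speckles, read -0.16, -0.10 and 0.03 in the controls and 0.09, 0.34 and 0.65 at 0.1, a difference of 0.44 ± 0.16 with the same sign in 5 of 5 probe sets. Cirbp and Rbm3, RNA-binding proteins known for their induction by mild cold, differed by 0.68 ± 0.25 and 0.41 ± 0.17, and Clk4, a kinase of splicing factors, by 0.29 ± 0.12, all non-overlapping. In females at 0.1 the median of this list was -0.08, and that of the ribosomal genes 0.02. With the hepatocyte and muscle means as covariates, their medians were 0.05 and -0.02, so the ribosomal direction turned. The medians were 0.23 for splicing and 0.14 for ribosomal genes under quantile normalization.

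Immediate early genes, the first to respond to growth signals, had 7 of 33 members non-overlapping and higher (21.2%) and 1 non-overlapping and lower. The higher count was 12 without control replicate 2 and 11 without replicate 4 at 0.1. Fos read -0.17, -0.82 and 0.09 in the controls and 0.98, 0.26 and 0.19 at 0.1, a difference of 0.78 ± 0.27. Replicate 4 was far above the others in Fos, and a second probe set of the gene had the opposite sign. Egr1 read -0.42, -0.70 and -0.38 against -0.09, 0.08 and 0.08, a difference of 0.52 ± 0.21. Gadd45b (0.63 ± 0.24), a stress-induced growth regulator, and Dusp5 (0.46 ± 0.19), a phosphatase of ERK, were non-overlapping too. The median of the list was 0.22, and 0.07 without replicate 4, which also was highest in Fosb (1.06) and Nr4a1 (0.74). How these arrays' handling bears on such rapidly induced genes was not tested.

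Cell cycle genes were slightly higher on average. Of 41 measured, 35 were above 0, 6 were non-overlapping and higher (14.6%) and the median was 0.09. Without control replicate 1, which had the lowest list mean (-0.25), 20 of 41 were above 0 and the median was 0.00. The non-overlapping and higher count was 19 without control replicate 3, 11 without replicate 4 at 0.1 and 10 without replicate 6. The 6 were largely genes of DNA replication. Mcm3 and Mcm7, subunits of the replicative helicase, differed by 0.53 ± 0.23 and 0.37 ± 0.15. Mcm3 read -0.69, -0.15 and -0.61 in the controls and 0.04, 0.02 and 0.08 at 0.1, so the treated arrays were close together and above each control.

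Epithelial genes had large average differences that single arrays interrupted. Of 27 luminal genes, 25 were above 0 and the median was 0.72, but 1 was non-overlapping and higher (3.7%), Areg. Epcam, an adhesion protein of epithelial cells, read -1.35, -1.05 and 0.01 in the controls and -0.52, 0.58 and 0.39 at 0.1, a difference of 0.95 ± 0.32. Cdh1, E-cadherin, read -1.64, -0.95 and -0.18 against -0.63, 0.37 and 0.44. In both genes control replicate 3 lay above replicate 4 at 0.1. Without control replicate 3, 21 of the 27 were non-overlapping and higher, and without replicate 4 at 0.1 it was 23. The luminal median was 0.48 without control replicate 1. The basal and myoepithelial genes gave the same pattern, with 17 of 18 above 0, 0 non-overlapping and a median of 0.55, and 13 or 16 non-overlapping and higher without the one or the other array. Cnn1 and Acta2, contractile proteins of myoepithelium that smooth muscle also makes, differed by 0.89 ± 0.27 and 0.51 ± 0.16. In females at 0.1 the median of the luminal genes was 0.10 and of the basal genes 0.08.

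Of 21 milk genes, 15 were above 0, with a median of 0.56, and 2 were non-overlapping and higher (9.52%, near the 8.81% over all genes), Wap and Csn3. The median was 0.32 without control replicate 1, and the count was 5 without control replicate 2, 11 without control replicate 3 and 13 without replicate 4 at 0.1. Wap, whey acidic protein, read -1.94, 0.08 and -0.30 in the controls and 0.66, 1.01 and 1.15 at 0.1, a difference of 1.66 ± 0.67 (adjusted p = 0.376 in limma) that was 1.05 without control replicate 1. Csn3, kappa-casein, read -2.04, -0.36 and -0.57 against 0.07, 0.05 and -0.05, a difference of 1.01 ± 0.40. Csn2, beta-casein, read -2.99, -0.11 and -1.41 against -0.44, -0.19 and 0.11 and overlapped. Control replicate 1 was the lowest array in each of these 3 genes.

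Immune and liver genes differed between the groups by amounts as large as any gland list. T cell genes had 17 of 17 differences above 0 with a median of 1.39, and B cell genes 14 of 15 with a median of 0.93. The T cell means ranged from -1.56 to 0.22 in the controls and from 0.10 to 0.52 at 0.1. Non-overlapping and higher were 2 of 17 T cell genes (11.8%, near the 8.81% over all genes) and 3 of 15 B cell genes (20%). Control replicate 2 read like the treated arrays. Without that array the counts were 14 and 14 (82.4% and 93.3%, against 17.8% over all genes), with medians of 1.97 and 1.42. The T cell median was 0.83 without control replicate 1. Without replicate 4 at 0.1 the T cell count was 14 (82.4%) but the B cell count only 5 (33.3%), against 22.6% over all genes. Lck, a T cell kinase, for example read -1.84, 0.17 and -1.18 in the controls and 0.07, 0.63 and 0.68 at 0.1. Of 30 hepatocyte genes, 29 were below 0, 15 were non-overlapping and lower (50%) and the median was -1.38, and Alb, serum albumin, read 0.07, 1.67 and 2.45 in the controls against -0.94, -0.17 and -0.07. Hepatocyte transcripts stood high in control replicates 2 and 3, and with control replicate 1 as the only control the hepatocyte median was -0.11. It was -0.88 without control replicate 3, and the lower count was 28 without control replicate 1. With that control alone, the white adipocyte median was -0.55, the endothelial median -0.21, the ribosomal median 0.24 and the splicing median 0.34. The part of these tissues in the gland lists was not otherwise tested. In females the skeletal muscle median at 0.1 was 2.15. The female muscle means were -3.17, 0.16 and -1.45 at dose 0 and 2.23, -0.04 and 0.11 at 0.1, so they overlapped. Of the 35 muscle genes, 7 were non-overlapping and higher in females (20%, against 4.83% over all genes). In males 5 were non-overlapping and lower (14.3%, near the 12.3% over all genes).

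Gene by gene, the 12 smallest p among non-overlapping genes higher at 0.1 lay between 0.28 and 1.18 in difference, with adjusted p between 0.3 and 0.316 in limma. Tmem200c, a transmembrane protein, headed them. It read -0.94, -0.70 and -0.41 in the controls and -0.04, 0.05 and 0.25 at 0.1, a difference of 0.77 ± 0.15, and 3 of 3 probe sets had the same sign. Serpinb9, an inhibitor of granzyme B, read -1.19, -0.72 and -0.71 against -0.42, 0.00 and -0.06, a difference of 0.71 ± 0.16. Wfdc18, a secreted protease inhibitor of the WAP family, read -0.45, 0.28 and 0.07 against 0.42, 1.84 and 1.19, a difference of 1.18 ± 0.30. The gap between its groups was narrow, from 0.28 to 0.42.

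Col9a1 (0.66 ± 0.16) and Col26a1 (0.81 ± 0.19), both collagens, Spon1 (0.56 ± 0.14), a secreted matrix protein, and Vangl2 (0.51 ± 0.13), a planar cell polarity protein, were also in this set. So were Dusp6 (0.52 ± 0.13), an ERK phosphatase, Anapc7 (0.31 ± 0.08), a subunit of the anaphase promoting complex, Mtmr7 (0.44 ± 0.11), Cabcoco1 (0.62 ± 0.16) and Wdr20 (0.28 ± 0.07). The probe set that stood for Dusp6 in the list of immediate early genes, chosen by its spread in the other arrays, differed by -0.01, so the probe sets of Dusp6 differ. Between 10 and 0.1, 2 of the 12 were higher at 10, Serpinb9 by 0.61 ± 0.16 (limma adjusted p = 0.0369) and Spon1 by 0.69 ± 0.14 (0.00684). Over all genes 1.67% were higher at 10 and 4.15% were lower. Wfdc18 was lower at 10 than at 0.1 by -1.53 ± 0.30 (0.00519). These 12 genes were ranked on the same arrays at 0.1, which favours lower values at 10, so this fall is no independent result. With the beta-actin covariate 0 of the 12 were called, and without replicate 5 or without replicate 6 at 0.1 Serpinb9 was not called (0.0572 and 0.0802 in limma). Tmem200c differed by 0.08 ± 0.15 between 10 and 0.1, with differences from 0 of 0.77, 0.89 and 0.85 at the 3 male doses.

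The 12 smallest p in the lower direction lay between -0.92 and -0.38, with adjusted p from 0.102 to 0.316 in limma. Cryzl2, a quinone oxidoreductase-like protein, read 0.64, 0.49 and 0.50 in the controls and -0.12, 0.16 and 0.02 at 0.1, a difference of -0.52 ± 0.08. Fads3, a fatty acid desaturase family member, read 0.79, 0.52 and 0.55 against -0.10, -0.03 and 0.05, a difference of -0.65 ± 0.13. Rasd1, a Ras-related protein induced by glucocorticoids, read 0.85, 0.29 and 0.89 against -0.01, -0.10 and -0.60, a difference of -0.92 ± 0.20. By the rule that chose these 12 genes, all 3 treated arrays of each lay below the lowest control.

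The vessel genes Angpt1 (-0.71 ± 0.15), Rgs5 (-0.43 ± 0.09) and Egfl7 and the extracellular proteins Tfpi2 (-0.44 ± 0.08), a protease inhibitor, and Mmp28 (-0.68 ± 0.15), a matrix metalloprotease, belonged to this set. Hipk2 (-0.47 ± 0.10), a nuclear kinase, Vkorc1l1 (-0.49 ± 0.10), a vitamin K epoxide reductase, C19h16orf74 (-0.66 ± 0.13) and C1h19orf12 (-0.52 ± 0.11) completed it. At 10 µg/kg/day 5 of the 12 were lower than at 0.1 by limma's adjusted p and 0 were higher, against 4.15% and 1.67% over all genes. Among the 5 were Angpt1 (-0.78 ± 0.15, adjusted p = 0.00501) and Fads3 (-0.57 ± 0.13, 0.0163). These 12 too were ranked on the arrays at 0.1 that this comparison uses. The count of 5 was 2 without replicate 5 at 0.1, and 0 with the beta-actin covariate. Fads3 was not called without replicate 5 or without replicate 6 (0.0576 and 0.0832 in limma). In females at 0.1, 12 of these 12 were below 0, between -1.05 and -0.17, beside 7248 of 14217 over all genes. Those female arrays may be linked to the male ones, as said above. The 12 of the higher direction were split in females, 6 above and 6 below 0, between -0.13 and 0.31.

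Whether males and females differed at 0.1 was tested directly. The difference between the male and the female difference had 0 of 31042 probe sets (0%) past the adjusted threshold in limma, with a smallest adjusted p of 0.621 and 2266 probe sets at an unadjusted p under 0.05. For Areg the male difference exceeded the female one (0.30 ± 0.44) by 1.02 ± 0.63, and for Pgr the 2 were 0.56 and 0.57. For Tmem200c the male difference was larger than the female one (-0.07 ± 0.15) by 0.84 ± 0.21, and for Serpinb9 by 0.84 ± 0.23, each with an adjusted p of 0.621. For the fat cell gene Mgll, the female difference was -0.73 ± 0.15 and the sexes differed by 0.19 ± 0.22.

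**Figure D4:**
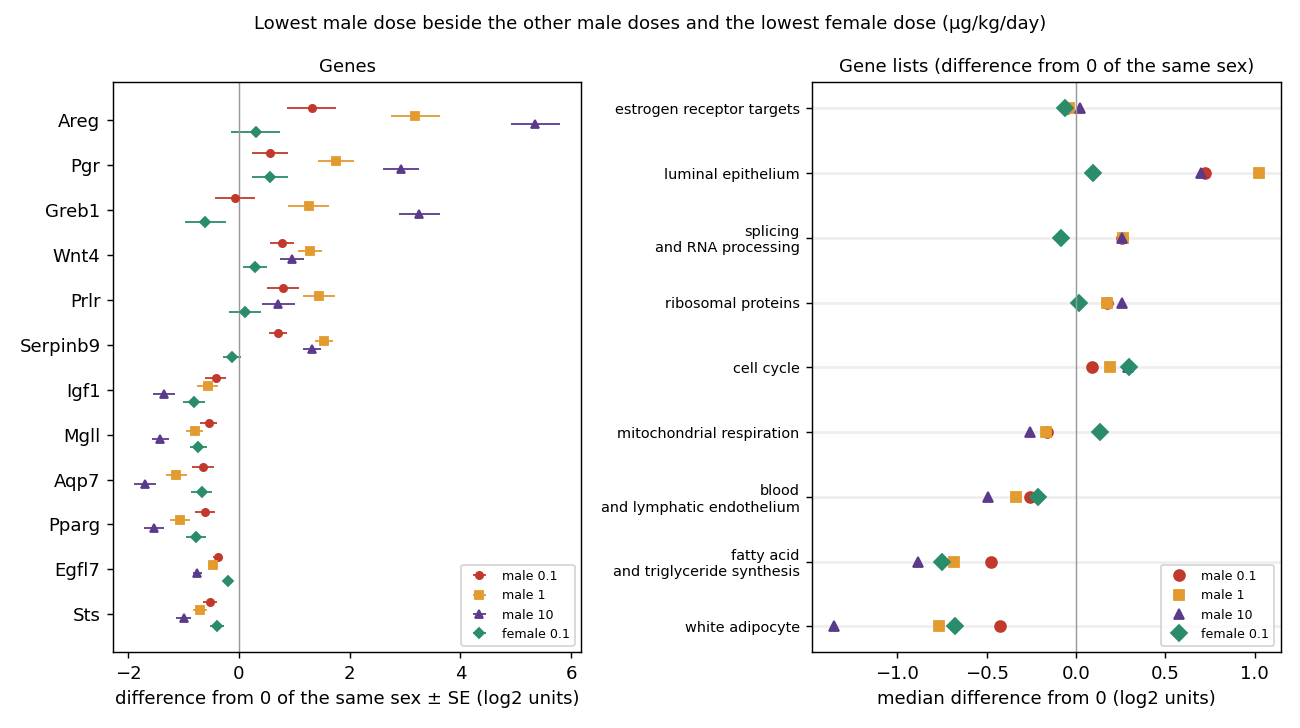
Left, difference from dose 0 of the same sex ± SE (log2 units) for 12 genes; right, median difference of 9 gene lists; circles are males at 0.1, squares males at 1, triangles males at 10 and diamonds females at 0.1 µg/kg/day, and the male doses share 3 control arrays. Areg and Pgr at 0.1 lie at 1.32 and 0.56 and far below their values at 10, while the splicing list lies near 0.26 at each male dose and at -0.08 in females.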

How the data were processed

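RNA of 24 arrays was read from the series' deposited table, which holds signed values on a log scale. The deposited values were taken as log2, since the log base is not given in the sources used here. GCOS is named without a role, per the submitters' processing notes. How they were summarized is unstated too; by their values, probe sets are centred within a sex. Arrays give no depth, so their number limits the precision. Of 31099 probe sets, 57 controls were left out. The platform annotation gave 20826 probe sets 1 gene (14217 genes), 436 several and 9780 none, and 20758 matched RefSeq.

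Groups came from the titles. limma 3.58.1 in R 4.3.3 fitted 8 group means (lmFit, eBayes, Benjamini-Hochberg over 31042 probe sets, threshold 0.05) and was tested on simulated data. A list's gene is its probe set with the largest SD over the 18 other arrays. Named were the 12 non-overlapping genes per direction with the smallest p, up to 4 per list, and Esr1, Pgr, Areg, Greb1, Prlr, Csn2, Wap, Igf1 and Alb; others were named after their values were seen. The arrays compared and the 40 lists were chosen with earlier results of these data known.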

Additional observations from a re-analysis of the deposited data

How the results depend on the processing

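For males at 0.1 against 0, the count of 0 probe sets past the adjusted threshold became 180 with array weights, 20 when the 5 hepatocyte-bearing arrays were dropped (1 male control left, assumed to vary like the others), 1204 with the beta-actin difference as a covariate, 3703 at an unadjusted p under 0.05 and 143 when a difference of at least 1 was also asked. Leaving out 1 of the 6 arrays gave 0 to 1, the 1 without male 0 replicate 3. For the difference between the sexes, the count of 0 became 4 with array weights. For 10 against 0.1, the count of 1382 became 3936 with array weights and 44 with the beta-actin covariate, and leaving out an array gave 636 (without male 0.1 replicate 6; 670 without replicate 5) to 1354. The other alternatives left these counts within 1.5 times. The cause was not tested. Of 78 named genes, 25 passed with array weights and 37 with the beta-actin covariate, beside 180 and 1204 of 31042 probe sets. Many of the 78 were chosen for a small p on these same arrays, which favours such counts. Greb1 turned to 0.28 without the hepatocyte-bearing arrays and ranged from -0.24 (without male 0 replicate 1) to 0.088 (without replicate 2), and Esr1 turned to 0.0015 without the array of each group with the highest muscle markers, an alternative chosen after seeing the data. With that pair left out, 22 of 27 adipocyte genes were non-overlapping and lower (81.5%, against 27% over all genes). Their median was -0.31. No paired analysis was possible within males because the replicate numbers of the groups compared (1 to 3, 4 to 6, 10 to 12) do not overlap. Males and females share numbers. Deviations of same-numbered male and female arrays from their group means correlated at -0.23, -0.16 and -0.11 at dose 0. At 0.1 they correlated at 0.59, 0.44 and 0.46, so those arrays deviated together. The labels do not say what the numbers mean, and they were not taken as pairs in the main fit. With the replicate block, added after seeing the data, 0 probe sets were called for the difference between the sexes (smallest adjusted p 0.0948 in limma, 3407 at an unadjusted p under 0.05).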

Other observations

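Transporters of amino acids and glucose were split rather than moved one way. Of 29 measured, 7 were non-overlapping and higher (24.1%) and 6 non-overlapping and lower (20.7%), with a median of -0.04. Without replicate 4 at 0.1 the counts were 11 and 10. Slc7a11, the cystine importer, and Slc38a1, a glutamine importer, were higher by 0.97 and 0.87. Slc2a4, the insulin-responsive glucose transporter of fat and muscle, and Slc1a3, a glutamate importer, differed by -0.56 and -0.41.

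Among heat shock genes, Hspa4, a chaperone of the Hsp110 family, read -0.32, -0.29 and -0.26 in the male controls and -0.01, -0.05 and 0.01 at 0.1, a difference of 0.27 ± 0.08, and the female difference at 0.1 was 0.33 ± 0.08. Ccl9, a chemokine of the CC family, read 0.65, 0.84 and 1.10 in the male controls and -0.20, 0.02 and -0.02 at 0.1, a difference of -0.93 ± 0.35 beside -0.89 in females. Neither passed the adjusted threshold in limma. Red blood cell genes had 5 of 12 members non-overlapping and lower (41.7%), among them Car1 (-0.58 ± 0.19) and Ahsp (-0.46 ± 0.16).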
